A study of Mus musculus with 4 samples.

Results

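The 3 microRNAs miR-210, miR-132 and miR-212 are known to be induced by stimuli, and here their ratios between Foxp3-transduced and control vector-transduced mouse T cells were examined. They were chosen by probe name, as the probes whose ID without its prefix (1org- or 2org-, whose meaning the labels do not give) was that number. This gave 3 of the 178 probes of the deposited value table, 2org-210, 1org-132 and 2org-212, each the only probe of its number. Of the 178 probes, 171 were for miRNAs and 7 for control RNAs. The platform annotation listed 2org-212 as Mir212 and did not list the other two, so the identity of miR-210 and miR-132 rests on the probe ID.

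Each 2-colour array compared total RNA of FoxP3-transduced activated T cells with that of activated T cells carrying the control vector, on 2 arrays at 72 h and 2 at 96 h. On replicate 1 at either time the Foxp3 sample was labelled with Cy5 and the control with Cy3, and on replicate 2 the dyes were exchanged. The strain and age of the mice, the vector, its promoter, the activating stimulus and whether 72 h and 96 h were separate cultures are not stated in the labels. Arrays of 1 time point hold the same RNAs by the labels and were averaged into 1 value for the mean ratio, which leaves n = 2. The main p-values of the mean ratio rest on the spread between these 2 values, pooled over the miRNA probes, which may be technical. Those of the time difference rest on the spread between dye-swapped arrays of the same RNAs, which is technical. Foxp3, a transcription factor, specifies regulatory T cells. The table gives ratios and no levels, so neither the Foxp3 transcript nor the presence of T cell miRNAs could be checked.

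MiR-210 is the miRNA most widely induced by hypoxia, under the transcription factor HIF-1, and it lowers mitochondrial respiration by repressing iron-sulphur cluster assembly. MiR-132 and miR-212 are processed from one transcript whose promoter is driven by CREB, the factor activated by cyclic AMP and calcium signals, and they were studied mainly in neurons. All 3 have also been described as rising when T cells are activated. A mature miRNA finds its targets mainly through its seed, bases 2 to 8.

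The mature 3p arms, the ones these names first referred to, are shown because they carry the relation between the members. The sequences are RefSeq's, from GRCm38.p6, written 5′ to 3′ with the seed in capitals, and all 3 members were matched. The probe IDs do not name an arm.
mmu-miR-210-3p: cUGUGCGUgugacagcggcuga
mmu-miR-132-3p: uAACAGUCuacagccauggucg
mmu-miR-212-3p: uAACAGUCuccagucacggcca
MiR-132 and miR-212 had the same seed, and no other of the 1679 mature mouse miRNAs in the RefSeq table had it. Set against each other without gaps, their first 9 bases were identical and 17 of 22 positions matched. The differences, counted from the 5′ end with the base of miR-132 first, were A10C, C14U, U17C, U20C and G22A. MiR-210 matched each of them at 3 of 22 positions, and no other mature mouse miRNA in the table had its seed.

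The hairpins show where these arms lie, with the 3p arm in capitals. Mir212 lay at chr11:75173388-75173478 and Mir132 at chr11:75173682-75173747, both on the plus strand with 203 bases between them, and Mir210 at chr7:141221384-141221493 on the minus strand.
Mir212: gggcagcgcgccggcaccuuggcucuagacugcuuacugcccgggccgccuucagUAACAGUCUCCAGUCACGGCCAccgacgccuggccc
Mir132: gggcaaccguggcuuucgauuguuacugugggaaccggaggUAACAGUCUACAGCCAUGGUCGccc
Mir210: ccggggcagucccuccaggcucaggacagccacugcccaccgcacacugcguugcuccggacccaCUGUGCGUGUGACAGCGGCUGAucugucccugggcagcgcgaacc
In the RefSeq gene table of that build no other gene overlapped any of the 3 hairpins. The nearest genes were Hic1, 3132 bases below Mir212, and Ovca2, 2195 bases above Mir132, and Rassf7, 2725 bases below Mir210.

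The deposited values were log ratios of the channels, taken as log2, and their direction was not stated. They were taken to be Cy5 over Cy3, channel 2 over channel 1, and both replicates 2 were turned in sign, so that a negative value stands for a level likely lower with Foxp3. This is the turned reading. The titles of all 4 arrays name the Foxp3 RNA first, so the values may instead run from Foxp3 to control on every array. That already turned reading is given beside each result. Over the 171 miRNA probes, the correlation between the dye-swapped arrays as deposited was 0.66 for 72 h and -0.12 for 96 h, and their signs were opposite for 48 probes (28.1%) and 96 probes (56.1%). Array medians ran from -0.83 to 1.27, the highest being that of 96 h replicate 1. Results are therefore also given after centring each array on its miRNA median, which lowered the turned ratios by 0.12 at 72 h and 0.62 at 96 h, and after centring on the U6 and tRNA controls, which lowered them by 0.04 at 72 h and raised them by 0.33 at 96 h.

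MiR-210 had the lowest turned ratio of the 3 members at both time points, and miR-132 was also below 0 at both. At 72 h its deposited values were -0.70 on replicate 1 and 0.69 on replicate 2, of nearly equal size and opposite sign. At 96 h they were 0.05 on replicate 1 and 2.08 on replicate 2. Without centring, the sign followed the exchange of the dyes at 72 h but not at 96 h, where both values were above 0 and replicate 1 was close to it. Turned, the 72 h arrays differed by 0.01, less than for all but 1 of the 171 probes, whose median difference was 1.51. After centring on the miRNA medians that closeness was gone, at -0.11 and -1.52.

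MiR-132 gave deposited values of -0.50 and -0.32 at 72 h and of 0.09 and 1.16 at 96 h, replicate 1 first. Both 72 h values were below 0 and both 96 h values above it, signs shown by 30 of the 171 miRNA probes (17.5%). MiR-212 gave -0.56 and -0.62 at 72 h and 1.24 and 0.26 at 96 h, with the same order of signs. Its values stayed near the middle of every array, at ranks 87, 103, 85 and 103 from the lowest of 171 (72 h replicates 1 and 2, then 96 h replicates 1 and 2). MiR-210 held ranks 70, 158, 18 and 165 and miR-132 ranks 95, 112, 20 and 146 in the same order. On the 96 h arrays both miR-210 and miR-132 were thus near the low end of replicate 1 and near the high end of replicate 2, while miR-212 was not. Ranks within an array do not depend on its centring, but signs do. Centred on the miRNA medians and turned, miR-132 was at 0.085 and -0.51 at 72 h and at -1.17 and -1.14 at 96 h. On that scale its sign followed the exchange of the dyes at 96 h but not at 72 h.

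**Figure D1:**
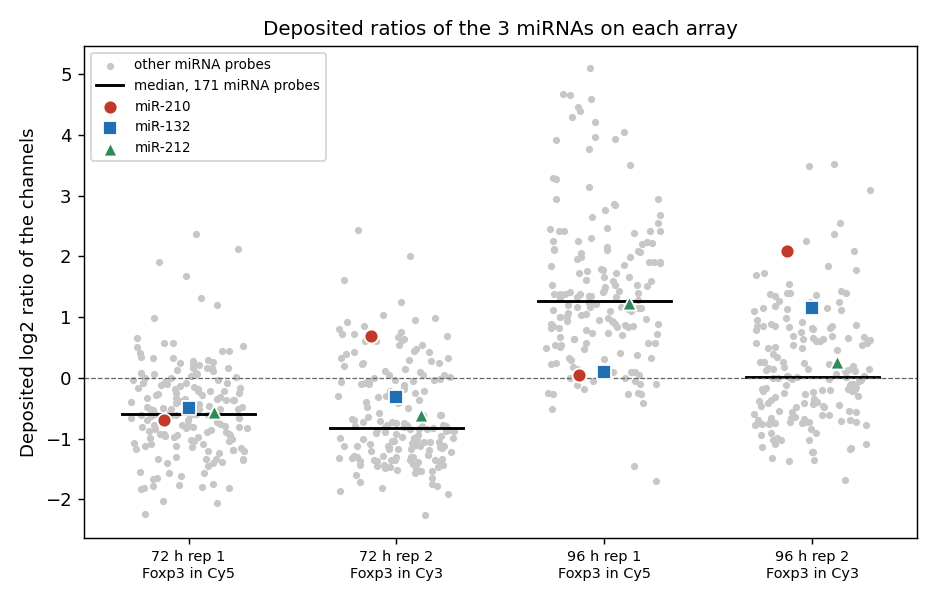
Deposited log2 ratio of the channels (vertical axis) on each of the 4 arrays (horizontal axis), with the 171 miRNA probes in grey, their median as a bar and the 3 members in colour. MiR-212 lies close to the median bar on each array, and miR-210 is the highest member on both arrays with Foxp3 in Cy3, at 0.69 and 2.08.

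**Figure D2:**
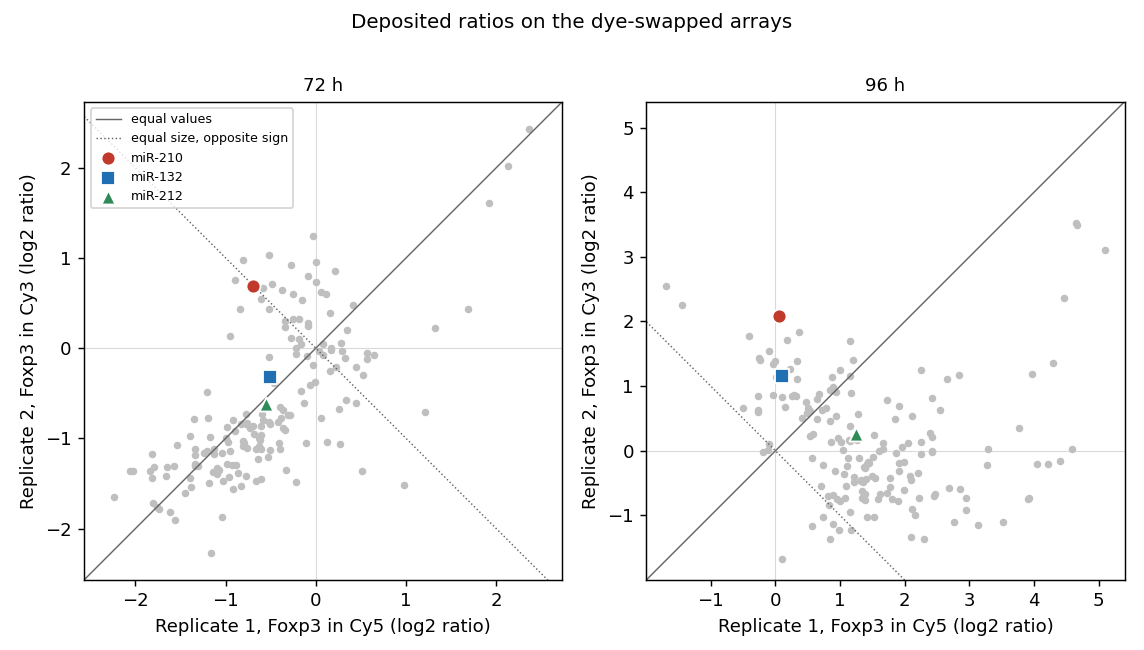
Deposited log2 ratio on replicate 1 (Foxp3 in Cy5, horizontal) against replicate 2 (Foxp3 in Cy3, vertical) at 72 h and 96 h, 1 point per miRNA probe, with lines of equal value and of equal size and opposite sign. MiR-210 sits on the opposite-sign line at 72 h, at -0.70 and 0.69, while miR-132 and miR-212 sit near the line of equal values at 72 h.

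At 72 h the turned ratio of miR-210 was -0.69, or 1.62-fold likely lower, the fourth lowest of the 171 miRNA probes. It was past 1.5-fold on the lower side with 1 sign on both arrays, a rule that 9 of 171 probes met (5.26%). In bulk RNA, fewer cells with a miRNA and less of it per cell cannot be told apart. Below it stood 2org-222 at -0.90, 1org-150 at -0.83 and 1org-7g at -0.77, and just above it 1org-20 at -0.64. Both arrays of 2org-222 (-0.81 and -0.98) and of 1org-150 (-0.90 and -0.76) lay below those of miR-210, while those of 1org-7g (-0.52 and -1.03) and 1org-20 (-0.03 and -1.24) spanned its value, so its order against the latter is not resolved. MiR-132 was at -0.09, from -0.50 and 0.32 on the turned arrays, and miR-212 at 0.03, from -0.56 and 0.62. Neither had 1 sign on both arrays.

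At 96 h miR-210 was again the fourth lowest, with a turned ratio of -1.01, or 2.02-fold likely lower, but it rested on replicate 2. The turned values were 0.05 and -2.08, so it did not have 1 sign and was not among the 9 probes (5.26%) past 1.5-fold on the lower side or the 79 (46.2%) on the higher side. MiR-132 was at -0.53, from 0.09 and -1.16, at rank 15 from the lowest. MiR-212 was at 0.49, from 1.24 and -0.26, below the median of 0.80 over all miRNA probes. Without centring no member was past the fold with 1 sign at 96 h.

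Centring brought the 96 h arrays of the members closer together, as it did over all miRNA probes. Their median difference between the 96 h arrays fell from 1.30 to 0.53 on centring by the miRNA medians. Centred on the miRNA medians, miR-210 was at -1.21 and -2.06 on the 96 h arrays, a mean of -1.64. MiR-132 was at -1.17 and -1.14, a mean of -1.15, its arrays differing by 0.03. Both were then past 1.5-fold on the lower side, as were 43 of 171 probes (25.1%), while miR-212 was at -0.02 and -0.24. At 72 h only miR-210 of the 3 passed, at a mean of -0.81, among 6 probes (3.51%). That mean rested mostly on replicate 2, at -1.52, with replicate 1 at -0.11. MiR-210 was thus 1 of 4 probes (2.34%) past the fold on the lower side at both time points. Centred on U6 and tRNA it was 1 of 3 such probes (1.75%), at -0.43 and -1.03 at 72 h and -0.38 and -1.0 at 96 h, and 1 of 4 (2.34%) at 96 h alone. With that centring miR-132 was at -0.13 at 72 h and -0.20 at 96 h, not past the fold, and miR-212 was past it on the higher side at 96 h, at 0.81 and 0.82, as were 108 probes (63.2%).

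**Figure D3:**
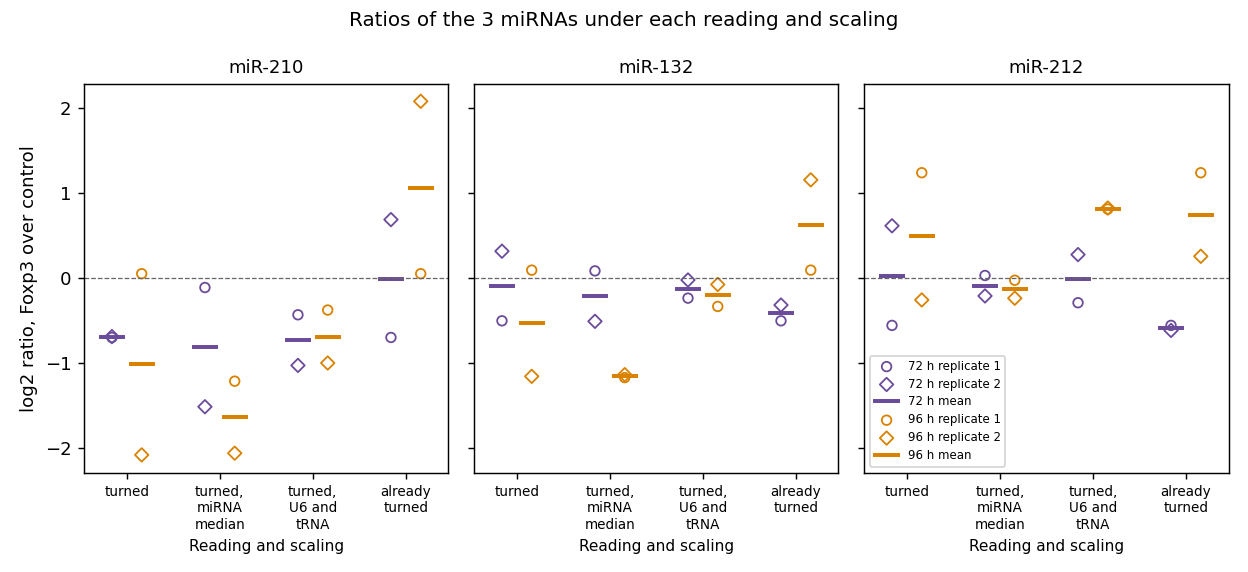
Log2 ratio of Foxp3 over control (vertical axis) for each member under the turned reading as deposited, centred on the miRNA median and centred on U6 and tRNA, and under the already turned reading; open symbols are arrays and bars the means of a time point. MiR-210 has means below 0 at both time points under the 3 turned scalings and 1.07 at 96 h under the already turned reading.

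In the already turned reading the members did not keep these places. MiR-210 then averaged -0.01 at 72 h, its arrays cancelling, and 1.07 at 96 h. MiR-132 averaged -0.41 and 0.63, and miR-212 -0.59 and 0.75. MiR-212 was past 1.5-fold on the lower side at 72 h, as were 91 of 171 probes (53.2%). All 3 were past it on the higher side at 96 h, as were 58 (33.9%). The median over all was -0.67 at 72 h and 0.65 at 96 h. From the highest of 171, miR-132 held ranks 71 and 90 and miR-212 ranks 81 and 69 at 72 h and 96 h. MiR-210 stood higher, at ranks 43 and 40. Centred on the miRNA medians as well, no member passed at either time point, with miR-210 at 0.70 and 0.42, miR-132 at 0.30 and -0.02 and miR-212 at 0.12 and 0.11.

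The mean over both time points was then tested with limma over the 171 miRNA probes. The mean of miR-210 was -0.85 ± 0.23 (SD, n = 2) on the log2 scale, 1.81-fold likely lower, with a standard error of 0.48, a 95% interval of -1.80 to 0.09 and an adjusted p of 0.545. The unadjusted p was 0.0761. MiR-132 had -0.31 ± 0.31 (SD, n = 2; interval -1.26 to 0.63; adjusted p = 0.677) and miR-212 had 0.26 ± 0.33 (SD, n = 2; interval -0.68 to 1.21; adjusted p = 0.717). No probe of the 171 was called by limma at an adjusted p of 0.05 (0%), where 16 had an unadjusted p under 0.05, none of them a member. The intervals leave room for a 2-fold change on the lower side in miR-210 and miR-132 and on the higher side in miR-212. Centred on the miRNA medians, limma called 2 probes (1.17%), neither of them a member. MiR-210 was then at -1.23 ± 0.58 (SD, n = 2), with an unadjusted p of 0.0014 and an adjusted p of 0.0607, and miR-132 at -0.68 ± 0.67 (SD, n = 2; adjusted p = 0.386). MiR-212 changed side, at -0.11 ± 0.03 (SD, n = 2; adjusted p = 0.959). Centred on U6 and tRNA the adjusted p was 0.619, 0.888 and 0.708 for miR-210, miR-132 and miR-212. In the already turned reading the means were 0.53, 0.11 and 0.08, each with an adjusted p of 0.998, so the direction of miR-210 and miR-132 turned with the reading.

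The miR-210 value was called without 72 h replicate 1, at -0.85 with an adjusted p of 0.0353, but so were 94 of the 171 probes (55.0%), so this is not a result about miR-210. Without 72 h replicate 2, 96 h replicate 1 or 96 h replicate 2 the mean of miR-210 was -0.86, -1.39 or -0.32. The last shows how far 96 h replicate 2 sets its size. Without the same array the mean of miR-132 was 0.00. The mean of miR-212 was -0.03 without 72 h replicate 2 and -0.11 without 96 h replicate 1, against 0.26 with all arrays.

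Between 72 h and 96 h, the arrays of each member overlapped in the turned reading, whereas 12 of 171 probes (7.02%) differed by 1.5-fold with no overlap. The difference, 96 h minus 72 h, was -0.32 for miR-210 (95% interval -3.12 to 2.48), -0.44 for miR-132 (-3.24 to 2.36) and 0.46 for miR-212 (-2.34 to 3.26), with limma's adjusted p at 0.99 for each. Limma called 0 of the 171 probes (0%), and 0 had an unadjusted p under 0.05. This fit takes the 2 dye-swapped arrays of a time point as replicates, so its p-values and intervals rest on technical spread. The uncentred intervals span more than 4 log2 units, so neither a rise nor a fall of any size seen among the members could be resolved. Centred on the miRNA medians, the intervals were -2.68 to 1.03 for miR-210, -2.53 to 0.65 for miR-132 and -1.60 to 1.52 for miR-212. Each of these also included no difference. In the already turned reading miR-132 and miR-212 did not overlap between the time points, nor did 116 probes (67.8%) that were higher at 96 h.

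The members were next set against each other on the same array, a difference that centring cannot change. MiR-132 minus miR-212 was 0.05 and -0.30 on the turned 72 h arrays and -1.15 and -0.90 on the turned 96 h arrays. The pair, known to come from one transcript, therefore had near ratios at 72 h and ratios that differed by 1.02 on the log2 scale at 96 h, in the same direction on both arrays. MiR-210 was lower than miR-132 on all 4 turned arrays, by 0.20 and 1.01 at 72 h and by 0.04 and 0.93 at 96 h. MiR-210 minus miR-212 was -0.14 and -1.30 at 72 h and -1.19 and -1.82 at 96 h. For these 3 pairs, means over the time points were -0.57 ± 0.64, -0.54 ± 0.08 and -1.12 ± 0.55 (SD, n = 2), and no test was made because 2 time points cannot give a two-sided exact sign-flip p below 0.5. In the already turned reading the 3 means were 0.03, 0.42 and 0.45, and miR-132 minus miR-212 had opposite signs on the 96 h arrays, -1.15 and 0.90. Whether each probe separates miR-132 from miR-212 was not tested.

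Probes whose pattern lay nearest to each member were found by the mean absolute difference of the centred deposited values over the 4 arrays, as a description. Nearest to miR-212 were 1org-29c at 0.09, 2org-28 at 0.16 and 1org-296 at 0.17. Nearest to miR-132 were 1org-29b at 0.21, 1org-130b at 0.25 and 1org-30c at 0.27, and nearest to miR-210 were 1org-142-as at 0.28, 1org-15a at 0.30 and 1org-7g at 0.38. MiR-132 and miR-212 were not among each other's nearest. They lay 0.60 apart, so that miR-212 came 42nd in the order from miR-132 and miR-132 came 69th in the order from miR-212. MiR-132 came 16th in the order from miR-210, at 0.54.

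Of the other miRNAs described as hypoxia-responsive, 19 were measured by probe ID, and 1 of them, 1org-20 (a miRNA of the growth-promoting miR-17 cluster), was below 0 on all 4 turned arrays, at a mean of -0.86 ± 0.32 (SD, n = 2; limma adjusted p = 0.545), near the -0.85 of miR-210. None passed limma. Below 0 were 9 of 19 at 72 h and 7 of 19 at 96 h, against 69 and 44 of all 171 miRNA probes. The list's medians were 0.02 at 72 h and 0.47 at 96 h, against 0.07 and 0.80 over all. The highest was 1org-192 at 1.13 ± 1.69 (SD, n = 2). As already turned, 14 of 19 were below 0 at 72 h and 1 of 19 at 96 h, against 129 and 10 of all probes.

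Of the other miRNAs linked to CREB or to neuronal activity, 8 were measured, and none had 1 sign on all 4 turned arrays or passed limma. At 72 h 6 of 8 were above 0, at 96 h also 6 of 8 and at both 4, and the medians were 0.16 at 72 h and 0.86 at 96 h. Over all 171 miRNA probes, 102 were above 0 at 72 h, 127 at 96 h and 91 at both. The medians over all were 0.07 and 0.80. The lowest of the 8 was 1org-29b, at 0.03 and -0.52, and the highest 1org-188, at 0.32 and 1.23. The 12 measured probes of neural miRNAs, fixed as markers of the cells in which miR-132 and miR-212 are best known, had medians of 0.16 at 72 h and 0.93 at 96 h, with 9 and 10 of 12 above 0. They ran from -0.03 for 1org-149 to 0.69 for 1org-9* as means over both time points. MiR-132, at -0.09 and -0.53, was below both medians at both time points in the turned reading. The CREB and neural lists share 1org-134, 1org-9, 2org-219 and 1org-124a, so their medians are not independent. As already turned, the neural medians were -1.14 and 0.58 and those of the CREB list -0.92 and 0.60, and miR-132, at -0.41 and 0.63, was above both at both time points. The part of neural RNA in the ratios was not tested, since no level is available.

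Of 18 measured miRNAs described as induced by T cell activation, 3 were above 0 and 4 below 0 on all 4 turned arrays, and none passed limma. The highest was 1org-31 at 1.03 ± 0.31 and the lowest 2org-222 at -1.51 ± 0.87 (SD, n = 2), and with them 1org-183 at 0.63 and 2org-214 at 0.52 were above 0 and 2org-19a at -0.49, 1org-20 at -0.86 and 2org-221 at -1.23 below 0. The median was 0.14 at 72 h and -0.07 at 96 h. Of 18 described as reduced by activation, 3 were below 0 on all 4 turned arrays, namely 1org-15a at -0.71, 1org-15b at -0.52 and 1org-16 at -0.13, the highest was 2org-223 at 0.81 ± 1.44 (SD, n = 2), and the median was -0.07 at 72 h and 0.23 at 96 h. The lowest of the reduced list by mean, 1org-15a, lay above miR-210, whereas the induced list held probes below it. Over all 171, 3 were above 0 and 10 below 0 on all 4 turned arrays. As already turned, the medians were 0.02 and 0.57 for the induced list and -0.16 and 0.57 for the reduced list. Centring moves all probes of a time point alike, and list medians changed side with it. Centred on the miRNA medians, the 72 h and 96 h medians were -0.10 and -0.15 for the hypoxia list, 0.04 and 0.24 for the CREB list, 0.04 and 0.31 for the neural list, 0.02 and -0.69 for the induced list and -0.18 and -0.39 for the reduced list. Centred on U6 and tRNA, the hypoxia list was at -0.02 at 72 h and the induced list at 0.26 at 96 h.

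**Figure D4:**
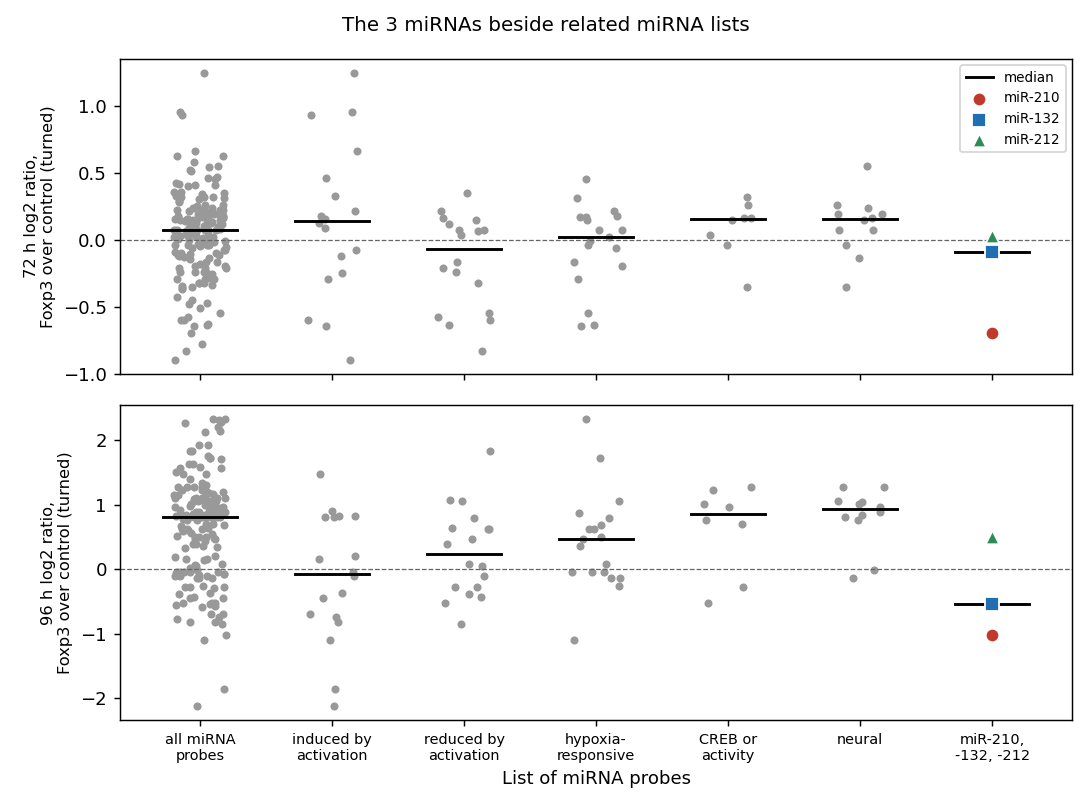
Turned log2 ratio of Foxp3 over control (vertical axes) at 72 h and 96 h for all 171 miRNA probes, the related lists and the 3 members (horizontal axis), 1 point per probe with the median of each list as a bar. MiR-210 lies at -0.69 and -1.01, near the low end of all probes, and miR-212 at 0.03 and 0.49.

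Probes of miRNAs typical of other cell types were mostly above 0 at 96 h, as were 127 of all 171 miRNA probes in the turned reading. The turned medians over all were 0.07 at 72 h and 0.80 at 96 h. In the turned reading at 96 h the single erythroid probe 1org-144 was at 1.93, the myeloid 2org-223 at 1.83 and the liver 1org-122a at 0.89, and both muscle, all 6 epithelial and 8 of 9 stromal or endothelial probes were above 0, with medians of 1.14, 0.85 and 1.17. At 72 h these medians were 0.26, 0.09 and 0.00, and centred on the miRNA medians 0.14, -0.03 and -0.12. So centred, the 96 h values were 1.30 for 1org-144, 1.20 for 2org-223, 0.26 for 1org-122a and medians of 0.52, 0.23 and 0.54, against 0.18 over all miRNA probes. The highest and lowest of them by mean were 1org-206 at 1.01 and 1org-133 at 0.39 in muscle, 1org-141 at 0.76 and 1org-200a at 0.28 in epithelium, and 1org-126* at 1.16 and 2org-10a at -0.06 in stroma or endothelium. In the turned reading miR-210 and miR-132 lay below these 3 medians at both time points. As already turned, the 72 h medians were -0.27 for muscle, 0.31 for epithelium and -1.49 for stroma or endothelium, those of 96 h being 1.69, 2.70 and 0.56, and miR-210 and miR-132 lay above the last at both time points. The part of other cells in the members' ratios was not tested.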

How the data were processed

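Per the labels, RNA of Foxp3-transduced and control vector-transduced activated T cells was hybridised to 4 2-colour arrays. The deposited value table was taken as log2 ratios of the 2 channels, 1 per probe and array. The log base, scanner, background correction, normalization and ratio direction are not stated in the labels or the table (not given in the sources used here). Its largest value, 5.10, exceeds the 4.82 that a log10 ratio of a 16-bit scanner allows. A natural log was not tested, so folds rest on base 2.

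Values with Foxp3 in Cy3 were turned in sign, and the 2 arrays of a time point averaged. The mean ratio was tested with an intercept-only limma fit (limma 3.58.1, R 4.3.3) over 171 miRNA probes, with Benjamini-Hochberg adjustment and 1 residual degree of freedom. Empirical Bayes moderation gave every probe the same SD of 0.68. The time difference was fitted with limma on the 4 arrays, whose spread within a time point is technical. Both fits were checked on simulated data, where sizes were recovered on average but few changes of 2-fold were called, so a missed call says little. The 7 control probes were left out; 5 of them, U6 and the tRNAs, served for centring. Lists were matched on probe IDs, leaving out the members and 1org-7b, which the annotation lists as a let-7 miRNA. The probe 1org-34a was kept in the hypoxia list by its ID, although the annotation lists it as Mir34c. Lists overlap, and 1org-20 stood in both the hypoxia list and the list induced by activation. The members and lists were chosen with earlier results of these data known. Named probes were the members, the 3 nearest to each, and in each list the highest, the lowest and those with 1 sign on all 4 turned arrays; the probes beside miR-210 in rank were added after their values were seen. Alternatives were other scalings, the other reading, each array left out, a dye term, robust variance, control probes in the fit and a 2-fold threshold. The number of arrays limits the precision.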

Additional observations from a re-analysis of the deposited data

Results flagged for a closer look

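In the already turned reading, both 72 h arrays of miR-132 and of miR-212 lay below 0 and both 96 h arrays above it. The difference, 96 h minus 72 h, was 1.04 for miR-132 and 1.34 for miR-212. The limma adjusted p of these differences was 0.408 and 0.353, so neither passed. Of the 171 miRNA probes, 30 (17.5%) showed these signs. In the turned reading neither did. The median over all miRNA probes in the already turned reading also moved, from -0.67 at 72 h to 0.65 at 96 h. Centred on the miRNA medians in that reading, the differences were -0.31 for miR-132 and -0.0145 for miR-212.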

How the results depend on the processing

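Values below are log2 ratios or counts, against -0.69 for miR-210 at 72 h, -1.01 at 96 h, 13 miRNA probes past 1.5-fold at 72 h and 88 at 96 h, and 1 and 0 members. Centred on the miRNA median, miR-210 at 72 h was -0.81, the miR-212 mean -0.11 and its time difference -0.042; 8 probes passed 1.5-fold at 72 h, 2 members at 96 h, and limma called 2 probes. Scaled as well, these were -0.91, -0.11 and -0.020, with 2 members past the fold at 96 h. Centred on U6 and tRNA, miR-210 was -0.73 at 72 h with a time difference of 0.042, and 2 members passed at 96 h.

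Read as already turned, miR-210 had a mean of 0.53, -0.005 at 72 h, 1.07 at 96 h and a difference of 1.07. MiR-132 had a mean of 0.11, 0.63 at 96 h and a difference of 1.04. MiR-210 minus miR-132 was 0.42 and minus miR-212 0.45. Past the fold were 96 probes at 72 h and 58 at 96 h with 3 members, and limma called 3. Centred too, miR-210 had a mean of 0.56 and 0.70 at 72 h, miR-132 a mean of 0.14, miR-212 a difference of -0.015, and the 2 differences between members stayed at 0.42 and 0.45, with 76 and 29 probes and 0 members at 72 h past the fold, and limma called 7. Back in the turned reading without centring, a 2-fold threshold left 1 probe at 72 h, 0 of them members, and 49 at 96 h.

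With each array left out in turn, the mean ran from -1.39 to -0.32 for miR-210, from -0.63 to 5e-04 for miR-132 and from -0.11 to 0.64 for miR-212. The time difference ran from -1.39 to 0.75, from -1.06 to 0.19 and from -0.29 to 1.21, and miR-210 minus miR-132 from -0.76 to -0.32. From single arrays, 94 to 124 probes passed the fold at 72 h with 1 to 2 members, and 97 to 133 at 96 h with 1 to 2 members, and limma called 0 to 94 probes. With the dye orientation as a term (replicate block), which adds no pairing of cultures, the means were unchanged by construction. Limma's adjusted p was then 0.800 for miR-210, 0.813 for miR-132 and 0.825 for miR-212. That fit takes the 4 arrays singly, dye-swapped arrays of the same RNAs included, so its p-values rest partly on technical spread. Robust variance and control probes in the fit moved no call of a member. The cause of these changes was not tested. No signal intensities were used here, so low signal could not be set apart.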
